A study of Rattus norvegicus with 15 samples.

Results

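The genes described here were 7 cathepsins (Ctsb, Ctsc, Ctsd, Ctsh, Ctsk, Ctsl and Ctss), which are proteases of the lysosome, and 2 cystatins (Cst3 and Cstb), which block cysteine proteases of that family. The members were all probe sets, groups of short oligonucleotides designed to report transcripts of a gene, whose platform annotation gave one of these 9 symbols. There were 14 such probe sets among the 8740 that are not array controls, 10 for cathepsins and 4 for cystatins. All 14 passed the filter on low signal, as did 6512 of the 8740, and 0 of their values lay below the 20th percentile of the array concerned. The genes were selected on their own measured values, the log2 signals across the 4 groups, so the differences between groups given for them are descriptions and not independent tests.

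The RNA came from mesenteric arteries, the vessels that supply the gut, of SHR, a rat strain bred for spontaneous hypertension, and of WKY (Wistar Kyoto), the related strain with normal blood pressure. Collateral arteries are vessels that carry added flow because an adjacent artery was occluded, and control arteries are those the labels call control. There were 4 arrays of SHR collateral arteries, 4 of SHR control arteries, 4 of WKY collateral arteries and 3 of WKY control arteries, all on 1 Affymetrix rat array type. The labels used here give no age, no time after occlusion and do not state whether each array had an animal of its own or a pool, so the spread between arrays may be technical in part.

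Cathepsins B, C, H, K, L and S use a cysteine in their active site, and cathepsin D uses aspartic acid. They digest proteins delivered to the lysosome, and some are also secreted, where cathepsins K, L and S can cut elastin and collagen of the vessel wall. Cystatin C, the product of Cst3, is secreted and blocks cysteine cathepsins outside the cell, and cystatin B, the product of Cstb, does so mainly in the cytosol.

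SHR collateral 3 stood apart from the other 14 arrays. Its Spearman correlation with them was 0.496 to 0.657 over the tested probe sets, against 0.805 to 0.931 among the others, and the 20th percentile of its signals was 171.2, while the others had 43.4 to 83.3. Most summaries that include this array, and single values that it moved by over 1.5 times, are given with and without it. Sums of marker signals are given only with it.

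The 14 probe sets stood mostly higher in SHR than in WKY, and mostly lower in collateral than in control arteries. Differences are mean log2 signals from a limma fit over all 15 arrays, in which a probe set is called at a Benjamini-Hochberg adjusted p under 0.05. For SHR minus WKY, averaged over both vessel types, 12 of the 14 lay above 0 and 2 below, with a median of 0.25 beside 0.07 over all tested probe sets. With equal array medians the median was 0.11 beside -0.07, with 10 above 0. Without SHR collateral 3 it was 0.29 beside 0.01, with 12 above 0. Of the 14, 1 was called, a Cstb probe set, where 58 of all tested probe sets were (0.891%). The same probe set was the one member whose 8 SHR arrays all lay above the 7 WKY arrays, as 0.23% of all tested probe sets did. The 2 probe sets below 0 were both of Cst3.

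The strain difference had the same sign in both vessel types for most members. In control arteries the median of the 14 was 0.41, beside 0.02 over all probe sets. There 0 members were called (0.0307% of all, 2 probe sets, with 421 at an unadjusted p under 0.05). In SHR control arteries 2 members lay wholly above the WKY control arrays, both Cstb (4.85% of all), and 2 wholly below, both Cst3 (3.72% of all). In collateral arteries the median was 0.24 beside 0.12, or 0.00 beside -0.12 with equal array medians. Without SHR collateral 3 it was 0.23 beside 0.01, with 12 of the 14 above 0, against 9 with that array. In collateral arteries 0 members were called (0% of all, with 496 at an unadjusted p under 0.05). There 2 members, Ctsb and a Cstb probe set, lay wholly above WKY (2.07% of all) and 1, a Cst3 probe set, wholly below (1.55% of all).

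For collateral minus control arteries, 12 of the 14 lay below 0 in the mean of both strains, with a median of -0.12 beside 0.04 over all probe sets. Without SHR collateral 3, 10 of the 14 lay below 0, with a median of -0.08 beside 0.00, and with equal array medians the median of all 15 arrays was -0.20 beside -0.04. With equal array medians and SHR collateral 3 left out, 8 lay below 0 and 6 above, with a median of -0.05 beside 0.03. The median was -0.20 in SHR, beside 0.06 over all probe sets, and -0.05 beside -0.01 without that array. In WKY it was -0.09, beside 0.00. By limma, 0 members and 0% of all probe sets were called in SHR, in WKY, in their mean and in the difference between strains, while the unadjusted p was under 0.05 for 245, 206, 333 and 124 probe sets. Within WKY, 2 members were wholly higher in collateral arteries, both Cstb (3.61% of all), and 2 wholly lower, both Cst3 (3.09% of all). In SHR, 0 members were wholly higher (0.906% of all) and 0 wholly lower (0.814% of all). Without SHR collateral 3 the members that did not overlap were the same in the comparisons that include it. The shares over all probe sets were then 1.63% and 2.27% for the SHR vessel types, 3.38% and 2.56% for the collateral arteries of the strains, higher and lower in turn, and 0.369% higher over all arrays. The SHR change minus the WKY change had a 95% interval that included 0 for each of the 14, and its widest, for a Ctsc probe set, ran from -2.12 to 1.69.

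**Figure D1:**
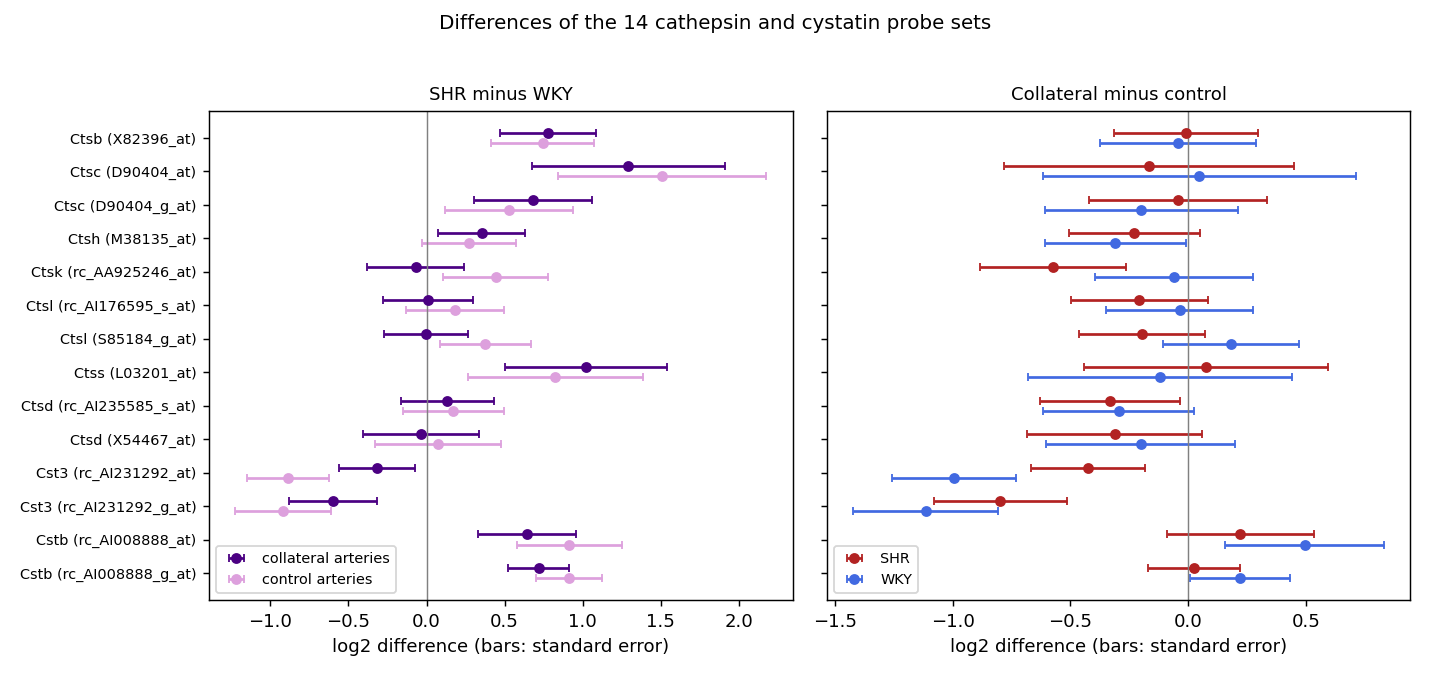
Log2 difference (x axis) of each of the 14 probe sets (y axis), SHR minus WKY on the left and collateral minus control on the right, with standard errors as bars. The Cst3 probe sets are the ones well below 0 in both panels, between -0.32 and -0.92 for the strain and between -0.43 and -1.11 for the vessel, and Cstb lies between 0.64 and 0.91 for the strain.

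The inhibitors Cst3 and Cstb differed between strains in opposite directions, and of the 2 genes only Cstb had a called difference. The windows below, from RefSeq on rat build GRCr8, run from 250 bases before the annotated start to 50 after it, and were searched on both strands for the E-box (CACGTG), which many helix-loop-helix factors bind, for its longer form in lysosomal genes, the CLEAR core (TCACGTGA), which contains an E-box, and for a box of the myeloid factor PU.1 (GAGGAAGT). They are shown because these 2 genes carried the differences that did not overlap in control arteries. Cst3 lies on the minus strand at chr3:156793888-156794187 and Cstb on the minus strand at chr20:10247150-10247449, and capitals mark a match.
Cst3: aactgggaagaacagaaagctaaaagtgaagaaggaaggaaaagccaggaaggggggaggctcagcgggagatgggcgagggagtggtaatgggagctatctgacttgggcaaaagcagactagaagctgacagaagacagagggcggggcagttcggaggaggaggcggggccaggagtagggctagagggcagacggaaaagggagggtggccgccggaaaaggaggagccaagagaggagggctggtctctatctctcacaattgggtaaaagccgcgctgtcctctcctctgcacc
Cstb: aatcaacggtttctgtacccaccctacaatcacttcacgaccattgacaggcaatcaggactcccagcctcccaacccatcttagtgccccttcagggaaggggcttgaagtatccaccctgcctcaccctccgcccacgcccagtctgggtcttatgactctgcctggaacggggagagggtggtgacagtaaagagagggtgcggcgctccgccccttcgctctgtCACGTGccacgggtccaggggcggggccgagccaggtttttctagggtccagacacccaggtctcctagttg
The Cstb window has 1 E-box, 22 bases before the start, and the Cst3 window has none of these motifs. An E-box occurs in 6.42% of 33469 rat promoters of this length. Its presence in the Cstb window is a description of the sequence, and whether a factor binds there was not tested.

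Cst3, the secreted inhibitor, was lowest in SHR collateral arteries and highest in WKY control arteries. Its probe set rc_AI231292_g_at had signals of 5169, 4808, 4680 and 3346 in SHR collateral arteries and 4598, 7013, 12608 and 8733 in SHR control arteries. WKY collateral arteries had 8757, 5784, 7408 and 5455, and WKY control arteries 14078, 17408 and 12612. All 3 WKY control arrays lay above every other array, by a narrow margin over SHR control 3. All 4 SHR collateral arrays lay below the 4 WKY collateral arrays.

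The second Cst3 probe set, rc_AI231292_at, gave 1965, 1796, 1736 and 1368 in SHR collateral arteries, against 1936, 2268, 3127 and 1984 in SHR control arteries. It gave 2769, 1764, 2127 and 1932 in WKY collateral arteries, against 5023, 3945 and 3795 in WKY control arteries. The 2 probe sets share 1 transcript and had a Pearson r of 0.93 over the 15 arrays. Here too the WKY control arrays were above all others, while the 2 collateral groups overlapped.

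In WKY, Cst3 was 2.17-fold lower in collateral than in control arteries by rc_AI231292_g_at (log2 difference -1.11 ± 0.31, SE) and 1.99-fold lower by rc_AI231292_at (SE of the log2 difference 0.26). In SHR the same differences were -0.80 ± 0.28 and -0.43 ± 0.24, with overlap between the vessel types for both probe sets. The SHR change minus the WKY change was 0.32 ± 0.42 and 0.57 ± 0.36, with 95% intervals from -0.56 to 1.20 and from -0.18 to 1.32. In control arteries Cst3 was 1.89-fold and 1.85-fold lower in SHR than in WKY (-0.92 ± 0.31 and -0.89 ± 0.26). In collateral arteries the strain difference was -0.60 ± 0.28 and -0.32 ± 0.24. Without SHR collateral 3 the SHR vessel difference was -0.82 and -0.43, so that array did not set it.

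Cstb, the cytosolic inhibitor, ran the other way and was the one member with a called strain difference. Its probe set rc_AI008888_g_at had signals of 10216, 7912, 10358 and 9146 in SHR collateral arteries and 9810, 7911, 10015 and 9150 in SHR control arteries. WKY collateral arteries had 5675, 5468, 5355 and 6298, and WKY control arteries 4790, 5047 and 4810. The lowest SHR array lay above the highest WKY array, and within WKY every collateral array lay above every control array. The SHR vessel types covered nearly the same range.

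Averaged over vessel types, Cstb by this probe set was 1.76-fold higher in SHR than in WKY (log2 difference 0.81 ± 0.14, limma adjusted p = 0.00643). Each array left out in turn kept the value between 0.79 and 0.86 and the adjusted p between 0.0053 and 0.0296. Setting all arrays to equal medians gave 0.68 with an adjusted p of 0.188, and doing so without SHR collateral 3 gave 0.75 with an adjusted p of 0.0318. That array has a raised median, and equal medians moved the median of all probe sets in SHR collateral minus control arteries to -0.12, beside 0.06. By vessel type the Cstb difference was 0.72 ± 0.20 in collateral and 0.91 ± 0.21 in control arteries.

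The second Cstb probe set, rc_AI008888_at, had 826, 628, 1035 and 1001 in SHR collateral arteries, against 951, 560, 895 and 608 in SHR control arteries. It had 647, 488, 505 and 568 in WKY collateral arteries, against 421, 311 and 450 in WKY control arteries. The groups stood in the same order as for the first probe set, with overlap between the collateral groups, and the 2 probe sets had a Pearson r of 0.87 over 15 arrays. Its strain difference averaged 0.78 ± 0.23 and was not called. For collateral against control arteries in WKY, Cstb stood at 0.50 ± 0.34 by this probe set and 0.22 ± 0.21 by the other, and in SHR at 0.22 ± 0.31 and 0.03 ± 0.20.

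**Figure D2:**
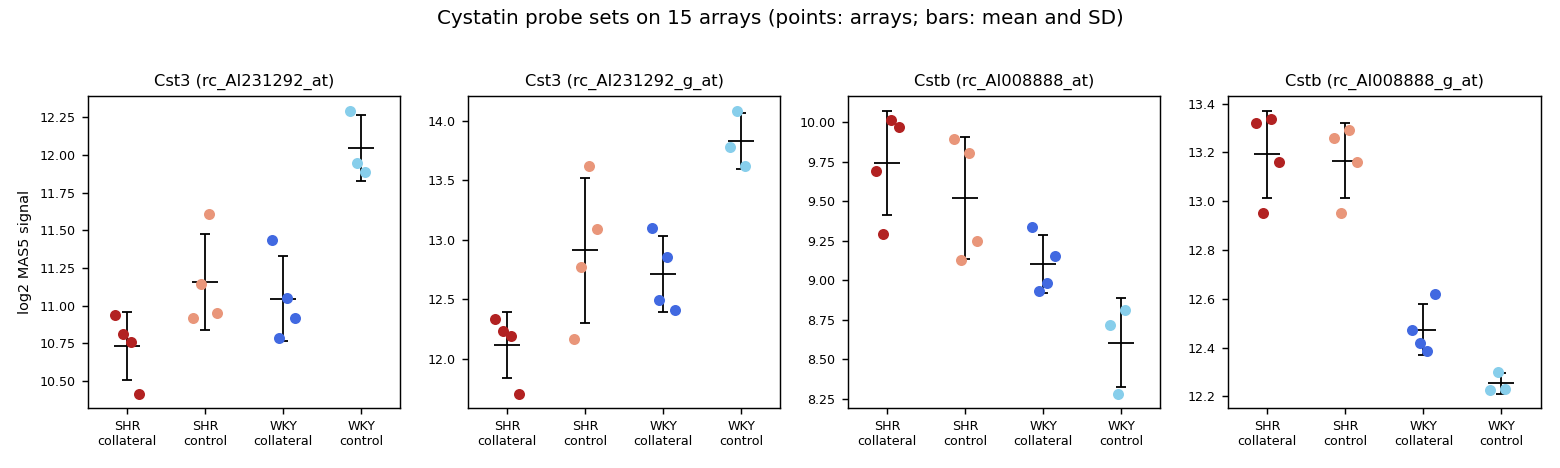
Log2 signal (y axis) of the 4 cystatin probe sets in the 4 groups (x axis), with a point per array and the mean and SD as bars. WKY control arrays are the highest points for Cst3 and the lowest for Cstb, and for rc_AI008888_g_at no SHR point is as low as a WKY point.

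Among the cysteine cathepsins, Ctsb, Ctsc and Ctss had the larger strain differences, all toward SHR and none called. Cathepsin B is an abundant lysosomal protease of most cell types. Cathepsin C removes N-terminal dipeptides and so activates the serine proteases of mast cell and leukocyte granules, and cathepsin S cuts the invariant chain from MHC class II molecules in antigen-presenting cells. Ctsc (chr1:151440799-151441098, plus strand) and Ctss (chr2:185775146-185775445, plus strand) are shown because, of the 8 members with a RefSeq promoter window, these 2 hold a PU.1 box, a motif present in 2.42% of all windows.
Ctsc: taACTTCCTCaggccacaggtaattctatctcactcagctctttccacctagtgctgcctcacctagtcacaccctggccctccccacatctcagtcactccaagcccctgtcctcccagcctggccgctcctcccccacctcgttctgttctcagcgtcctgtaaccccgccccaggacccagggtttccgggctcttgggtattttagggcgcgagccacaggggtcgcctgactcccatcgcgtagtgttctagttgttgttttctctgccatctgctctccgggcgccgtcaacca
Ctss: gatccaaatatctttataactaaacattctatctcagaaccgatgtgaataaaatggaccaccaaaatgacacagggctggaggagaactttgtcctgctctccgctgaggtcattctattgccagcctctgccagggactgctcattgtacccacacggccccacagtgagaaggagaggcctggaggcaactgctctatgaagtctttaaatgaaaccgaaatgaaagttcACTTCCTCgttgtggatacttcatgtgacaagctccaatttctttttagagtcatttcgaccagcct
The match, in capitals and on the minus strand of each window, begins 248 bases before the start of Ctsc and 17 bases before that of Ctss. Ctsd (chr1:206968772-206969071, minus strand) is the other member with an E-box. It has 1 at 157 and 1 at 10 bases before the start, and the nearer one lies within the 1 CLEAR core found in the 8 windows (0.777% of all). Whether a factor binds any of these motifs, and whether it has a part in the signals of these genes, was not tested. Ctsk (chr2:185747298-185747597, plus strand) lies close to Ctss on the same chromosome.

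Ctsb had signals of 2848, 3166, 3207 and 4645 in SHR collateral arteries and 5753, 2683, 4262 and 2088 in SHR control arteries. It had 2556, 1713, 1603 and 2224 in WKY collateral arteries and 2652, 1743 and 1853 in WKY control arteries. The collateral arteries of the strains did not overlap, while SHR control arteries spread over a wide range that reached into that of WKY. The strain difference was 0.78 ± 0.31 in collateral and 0.74 ± 0.33 in control arteries, 0.76 ± 0.23 on average. Leaving out SHR control 4, its lowest SHR array, gave 0.88 with a limma adjusted p of 0.0499, and the adjusted p with any other 1 array left out reached up to 0.302. Collateral and control arteries differed by -0.01 ± 0.31 in SHR and -0.04 ± 0.33 in WKY.

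Ctss had signals of 1992, 1449, 1628 and 1603 in SHR collateral arteries and 3133, 1022, 2389 and 794 in SHR control arteries. It had 1142, 886, 234 and 1872 in WKY collateral arteries and 973, 1088 and 659 in WKY control arteries. The SHR collateral arrays lay close together, and WKY collateral 4 reached among them while WKY collateral 3 was far below. The strain difference was 1.02 ± 0.52 in collateral and 0.82 ± 0.56 in control arteries. Leaving out 1 array moved the collateral difference over 0.42 to 1.42.

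Ctsc by D90404_g_at had signals of 1650, 625, 1341 and 1954 in SHR collateral arteries and 1787, 1045, 1293 and 1254 in SHR control arteries. WKY collateral arteries had 811, 595, 557 and 1508, and WKY control arteries 1142, 883 and 761. All groups overlapped, with SHR collateral 2 among the WKY arrays and WKY collateral 4 among the SHR arrays. By D90404_at the signals were 805, 458, 376 and 1258 in SHR collateral arteries, 1007, 926, 889 and 334 in SHR control arteries, 321, 125, 146 and 824 in WKY collateral arteries, and 605, 147 and 186 in WKY control arteries. The mean strain difference was 1.40 ± 0.45 by D90404_at and 0.61 ± 0.28 by D90404_g_at. The 2 probe sets thus gave the same direction and unlike sizes, with a Pearson r of 0.81 between them.

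Ctsh, an aminopeptidase, had signals of 1727, 1112, 2109 and 1443 in SHR collateral arteries and 2101, 1667, 2235 and 1405 in SHR control arteries. It had 1458, 1030, 984 and 1480 in WKY collateral arteries and 1912, 1419 and 1259 in WKY control arteries. The groups overlapped throughout, and the mean strain difference was 0.31 ± 0.21.

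Ctsk, which encodes a collagen-degrading cathepsin best known from osteoclasts, had 2182, 1448, 745 and 1433 in SHR collateral arteries and 1744, 2413, 1554 and 2534 in SHR control arteries. WKY collateral arteries had 1795, 1291, 1196 and 1475, and WKY control arteries 1714, 1602 and 1187. The low value of SHR collateral 3 weighed on its vessel difference in SHR, which was -0.57 ± 0.31 over all arrays and -0.29 without that array. In WKY the difference was -0.06 ± 0.34. The mean strain difference was 0.19, or 0.33 without that array.

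Ctsl, an endopeptidase of lysosomes that is also secreted, is reported by 2 probe sets that followed each other loosely over the arrays (Pearson r 0.47). By rc_AI176595_s_at its signals were 6685, 4062, 3684 and 7508 in SHR collateral arteries, 9001, 5218, 5972 and 4752 in SHR control arteries, 5900, 4977, 3885 and 6423 in WKY collateral arteries, and 7115, 4979 and 4282 in WKY control arteries. By S85184_g_at the lowest and highest signals were 2155 and 3596 in SHR collateral arteries, 2455 and 4194 in SHR control arteries, 2023 and 3576 in WKY collateral arteries, and 1795 and 3236 in WKY control arteries. All groups overlapped by both, and the mean strain differences were 0.09 ± 0.21 and 0.19 ± 0.20, or 0.18 and 0.25 without SHR collateral 3.

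Ctsd, the aspartic protease, had by rc_AI235585_s_at signals of 1354, 1201, 1174 and 859 in SHR collateral arteries and 2076, 1525, 1582 and 825 in SHR control arteries. WKY collateral arteries had 1009, 1268, 912 and 969, and WKY control arteries 1531, 1026 and 1288. By X54467_at the range was 787 to 1896 in SHR collateral, 815 to 3308 in SHR control, 1288 to 1766 in WKY collateral and 1479 to 2079 in WKY control arteries. The SHR control arrays held both the highest and the lowest Ctsd signal on rc_AI235585_s_at. Mean strain differences were 0.15 ± 0.22 and 0.02 ± 0.27, and mean vessel differences were -0.31 ± 0.22 and -0.26 ± 0.27. The values of X54467_at were 0.16 and -0.12 without SHR collateral 3.

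**Figure D3:**
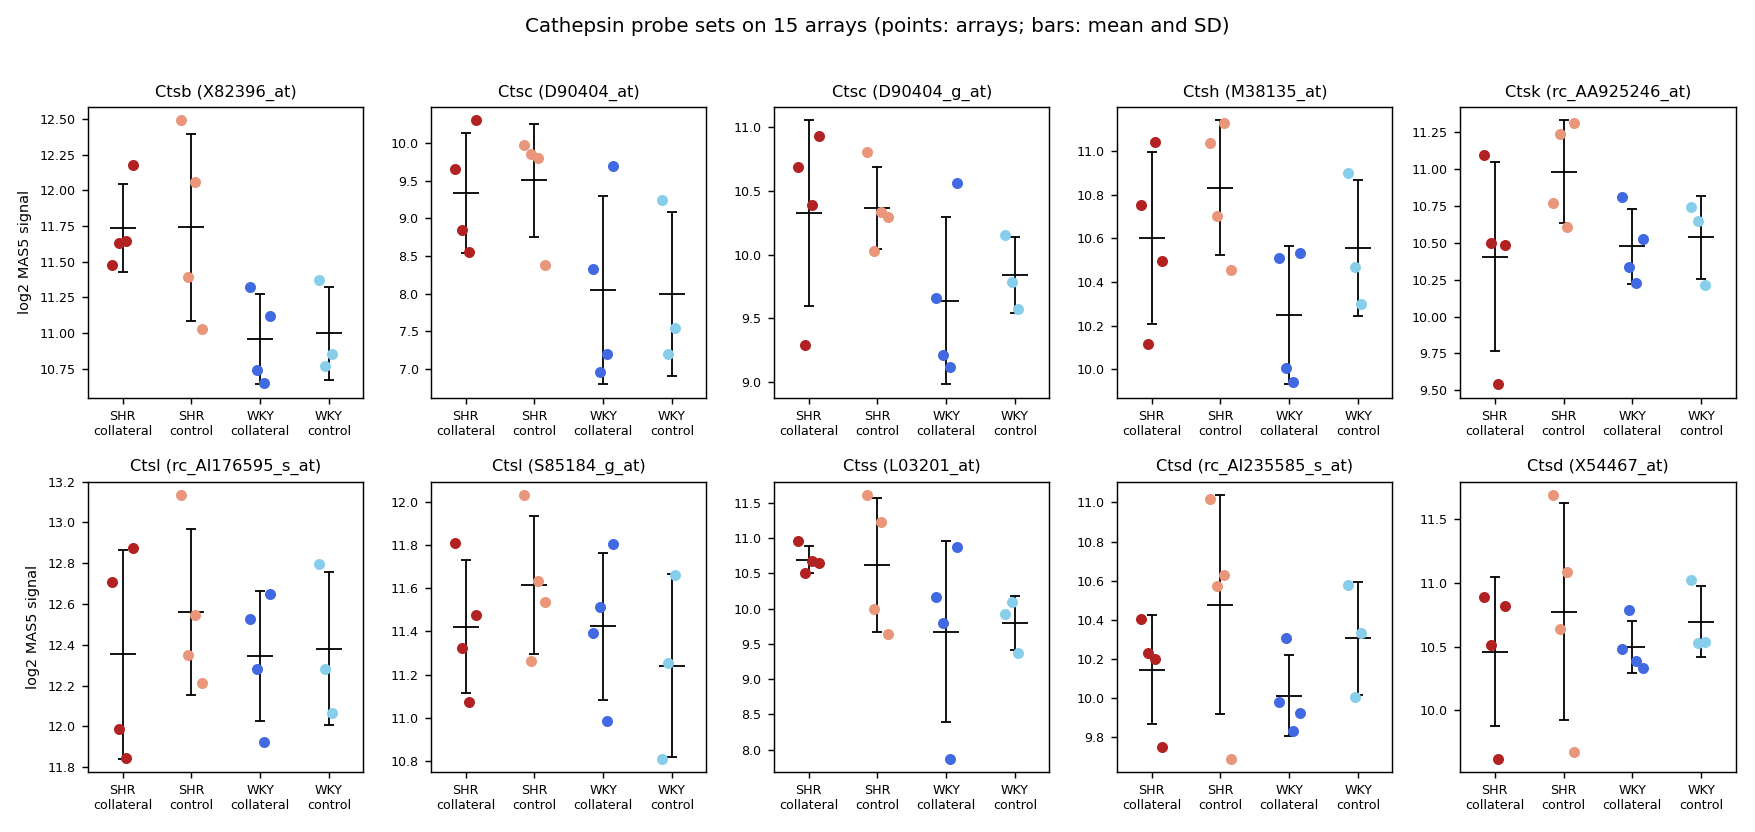
Log2 signal (y axis) of the 10 cathepsin probe sets in the 4 groups (x axis), with a point per array and the mean and SD as bars. Ctsb is the one cathepsin whose SHR and WKY collateral arrays do not overlap, and the SHR control arrays of Ctsb, Ctss and Ctsd spread as widely as the groups differ.

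Ordered by their 4 group means, all 10 cathepsin probe sets were highest in an SHR group. For 9 of the 14 members SHR control arteries had the highest mean, and for 6 WKY collateral arteries had the lowest. Of the 42 pairs of groups next to each other in these orders, 7 did not overlap, and these belonged to Cst3, Cstb and Ctsb. In 11 of the 42 the gap was larger than the larger SD of the 2 groups. Without SHR collateral 3 the 10 cathepsin probe sets were again highest in an SHR group, and 6 of the 42 pairs did not overlap. SHR control arteries then had the highest mean for 8 members, and WKY collateral arteries the lowest for 8. These counts were not taken over all tested probe sets, and sorting the groups by their means favours gaps between them. They describe the members and do not set them apart from other genes.

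Cathepsins also varied together between arrays of 1 group. SHR control 1 was the highest of its group for 8 of the 10 cathepsin probe sets and SHR control 4 the lowest for 7, with mean deviations from the group mean of 0.51 and -0.52 on the log2 scale. WKY collateral 4 was the highest of its group for 6 and WKY collateral 3 the lowest for 8, with mean deviations of 0.47 and -0.52. WKY control 1 was the highest of its group for 8. The 4 cystatin probe sets deviated by -0.13 on average on SHR control 1, -0.08 on SHR control 4, -0.06 on WKY collateral 4 and -0.01 on WKY collateral 3. The 8 tested macrophage markers deviated by 0.62 on average on SHR control 1, -0.25 on SHR control 4, 0.16 on WKY collateral 4, -0.34 on WKY collateral 3 and -0.16 on WKY control 1. Whether the cell content of the samples or their RNA moved the cathepsins on these arrays was not tested. Ctsc, Ctsd and Ctsl each enter the 10 by more than 1 probe set. How all tested genes varied together within these groups was not examined, so the pattern is not shown to be particular to cathepsins.

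**Figure D4:**
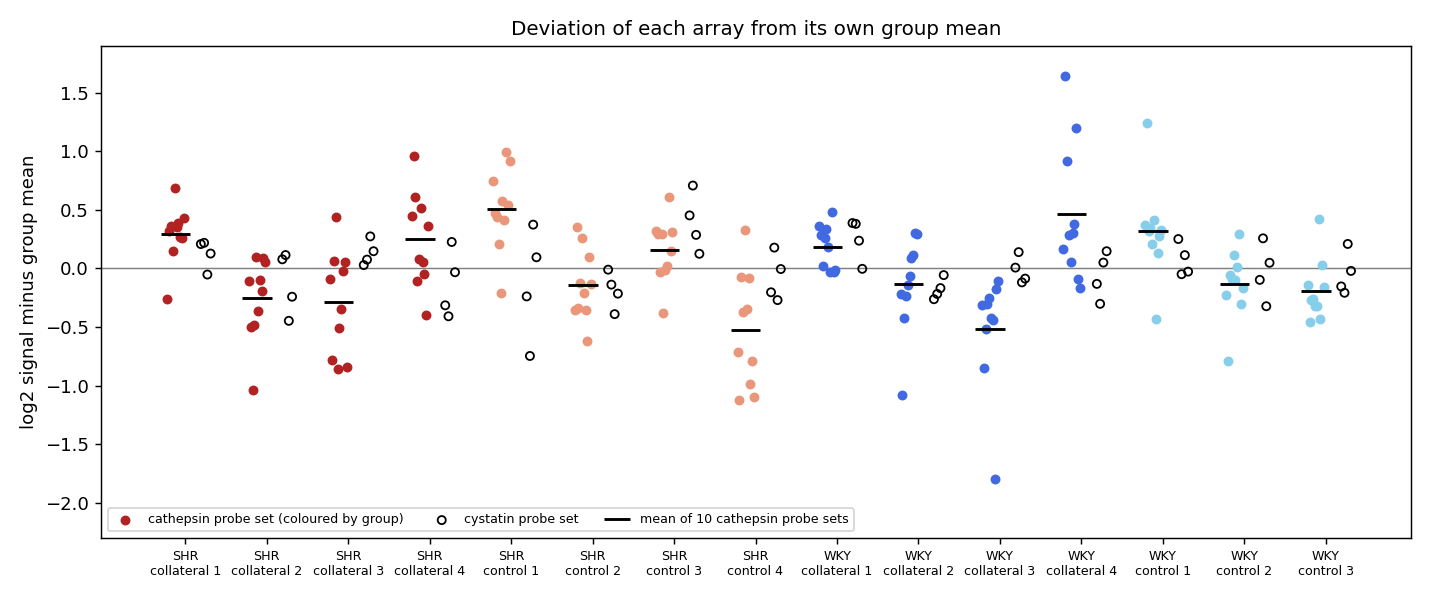
Log2 signal minus the mean of its own group (y axis) for the 10 cathepsin probe sets (filled) and the 4 cystatin probe sets (open) on each of 15 arrays (x axis), with the cathepsin mean as a line. Most cathepsin points lie above 0 on SHR control 1 and WKY control 1 and below 0 on SHR control 4, and on WKY collateral 3 all 10 lie below 0.

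Between genes, with the brightest probe set of each, the 21 pairs of cathepsins had Pearson r between 0.06 and 0.78 over 15 arrays, with a median of 0.49. Over the 14 arrays without SHR collateral 3 they lay between -0.14 and 0.84, with a median of 0.67. After removal of the group means the median was 0.51, or 0.60 without that array, with 19 of 21 above 0 in both. The closest pair over 15 arrays was Ctsb with Ctss (0.78), and over 14 arrays it was Ctsc with Ctsl (0.84), ahead of Ctsb with Ctss (0.77). Cst3 had a median r of -0.16 with the 7 cathepsins, or -0.30 over 14 arrays, and Cstb one of 0.54, or 0.51 over 14 arrays. Cst3 with Cstb gave -0.57, or -0.53 over 14 arrays. After removal of the group means it gave 0.07 and 0.05. These values share their arrays and scaling, and they are descriptions.

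Genes whose log2 signals were most like those of each member over the 15 arrays were found among all tested genes, and the search was repeated over the 14 arrays without SHR collateral 3. The highest r of a search over so many genes is high by selection. Group means were not removed, so shared differences between groups also enter these values. The closest gene was the same in both searches for 4 of the 9 members. They were Ctsb with Dbi (r 0.94 in both), Ctsl with Prdx1 (0.91, and 0.94 over 14 arrays), Ctss with Prkcb (0.89 in both) and Cst3 with Mgp (0.79, and 0.83 over 14 arrays). Cd74, the invariant chain that cathepsin S cuts, was next for Ctss, at 0.83 over 15 arrays and 0.84 over 14 arrays. For Cstb the closest was Hmox1 (0.90) over 15 arrays and Blvra (0.94) over 14 arrays. For the other 4 members that 1 array also changed the closest gene. Ctsc was closest to Dab2 (0.85) over 15 arrays and to Maf (0.93) over 14, and Ctsh to Gsta4 (0.87) and then to Stmp1 (0.91). Ctsd was closest to RT1-CE12 (0.89) over 15 arrays and to Mgst1 (0.90) over 14, and Ctsk to Gng11 (0.89) and then to Rnaseh2a (0.87).

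Cd74, the substrate of cathepsin S, and Cma1, a granule protease of the kind that cathepsin C activates, were called higher in SHR. For SHR minus WKY over both vessel types, 2 of the 7 tested genes of the class II list were called higher and 0 lower, with a median of 1.09. Over all 6512 tested probe sets 25 were called higher and 33 lower, with a median of 0.07. They were Cd74 at 3.52 ± 0.61 (limma adjusted p = 0.00643) and RT1-Da, a class II alpha chain, at 3.02 ± 0.49 (limma adjusted p = 0.00484). Cd74 had a range of 255.1 to 2875 in SHR and 25.5 to 354.8 in WKY, and RT1-Da one of 658.8 to 9118 in SHR and 77.0 to 1231 in WKY. Cd74 lay below the 20th percentile on 0 of 8 SHR arrays and 3 of 7 WKY arrays, and RT1-Da on 0 SHR arrays and 1 WKY array, so the size of both differences rests in part on signals near background. The RT1 genes have near-identical copies and differ in sequence between strains, so probe binding may differ with the strain, which was not tested. Of 7 tested granule serine proteases, which cathepsin C activates, 1 was called higher and 0 lower, with a median of 0.38, or 0.11 without SHR collateral 3. It was the mast cell chymase Cma1 at 1.19 ± 0.27 (limma adjusted p = 0.0376), with 1034 to 3824 in SHR and 610.7 to 1078 in WKY. Cd74 and RT1-Da were called with each of the 15 arrays left out, and Cma1 with 5 of them left out, its adjusted p reaching 0.113. With quantile normalization or equal array medians Cd74 and RT1-Da were called and Cma1 was not.

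Other lists of the pathway held no called gene in the strain contrast. The 20 tested lysosomal hydrolases, membrane proteins and sorting receptors had a median of -0.02 and the 7 tested subunits of the proton pump that acidifies the lysosome one of 0.10, which were 0.06 and 0.23 without SHR collateral 3. Ctse and Ctsj, the 2 other cathepsins tested, stood at 0.86 ± 0.42 and 0.29 ± 0.42, or 0.68 and 0.11 without that array. The 5 tested genes of a list of other cystatins and cysteine protease inhibitors had a median of 0.45, or 0.09 without SHR collateral 3. Among them the calpain inhibitor Cast stood at 0.76 ± 0.36. The 12 tested genes of the vessel wall matrix had a median of -0.03, or 0.06 without that array, with the laminin chain Lamb2 at -0.94 ± 0.27.

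In collateral minus control arteries, averaged over strains, 18 of the 20 lysosomal genes lay below 0 and 0 were called, with a median of -0.29 beside 0.04 over all probe sets. This was 15 of the 20, with a median of -0.18, without SHR collateral 3. Psap, the precursor of the saposins, stood at -0.54 ± 0.23 (-0.34 without that array), the membrane protein Lamp1 at -0.48 ± 0.20 and the fucosidase Fuca1 at -0.34 ± 0.17. Of the 20, 5 were wholly lower in collateral arteries in WKY (3.09% of all) and 0 in SHR (0.814% of all), and the difference between strains was not called for any. The pump subunits had a median of 0.03, or 0.13 without that array, and the class II list one of 0.41 with and without it, and 0 of either were called. The matrix genes had a median of -0.19, or -0.12 without that array, with Lamb2 at -0.80 ± 0.27, the proteoglycan Dcn at -0.60 ± 0.21 and Vcan at 0.84 ± 0.30.

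Whole arteries hold several cell types, and fewer cells of a type cannot be told apart from less RNA per cell. Of 10 macrophage markers on the array 8 were tested, 7 lay above 0 for SHR minus WKY with a median of 0.83 (0.70 without SHR collateral 3), and 1 was called higher, beside 25 of 6512 over all probe sets, the complement gene C1qb at 2.21 ± 0.47 (limma adjusted p = 0.0269, reaching 0.0972 with 1 array left out and called in 7 of those 15 fits, and not called with quantile normalization or equal array medians). Lyz2, the lysozyme of macrophages, stood at 1.84 ± 0.47 and was not called. Signals summed over the 10 ranged from 19738 to 31366 in SHR collateral, 11756 to 46181 in SHR control, 7540 to 21320 in WKY collateral and 6493 to 9642 in WKY control arteries, while Itgam lay below the 20th percentile on most arrays. Lyz2 alone had 12120 to 21062 in SHR collateral, 2611 to 34765 in SHR control and 2224 to 16164 in WKY collateral arteries. In WKY control arteries Lyz2 had 1103 to 3578. These sums include SHR collateral 3 and rest in large part on that 1 gene. Signals summed over 9 mast cell markers ranged from 3943 to 8774 in SHR collateral, 4473 to 7399 in SHR control, 2507 to 4358 in WKY collateral and 2998 to 4550 in WKY control arteries, with Mcpt1 below the 20th percentile on most arrays. Of the 4 tested mast cell genes, Cma1 was the 1 called. The part of these cells in the Ctss, Ctsc and Ctsb values was not tested.

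List medians for markers of other cells also lay away from 0 in the contrasts given here. For SHR minus WKY, smooth muscle markers had a median of -0.52 with 8 of 8 below 0. Endothelial markers were split, with 5 of 11 above 0 and 6 below and a median of -0.49. Of these 11, 1 was called lower, beside 33 of 6512 over all probe sets (Icam2 at -2.79 ± 0.42, limma adjusted p = 0.00454). Adipocyte markers had a median of 0.74 with 5 of 7 above 0, nerve markers one of 0.55 with 5 of 7 above 0 and fibroblast markers one of 0.29 with 7 of 10 above 0, and none of these was called. Without SHR collateral 3 these medians were -0.41 for smooth muscle, -0.72 for endothelial, 0.56 for adipocyte, 0.35 for nerve and 0.36 for fibroblast markers. In collateral minus control arteries, fibroblast markers had a median of -0.52 with 9 of 10 below 0, and adipocyte markers one of -0.65 with 6 of 7 below 0, none called. Those medians were -0.41 and -0.65 without SHR collateral 3. The part of these cells in the member differences was not tested.

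The state of the RNA also differed with strain. The log2 ratio of 3' to 5' control probe sets for actin and Gapdh, which rises as RNA or its copy shortens, ranged from 0.83 to 1.55 in the 8 SHR arrays and from 1.35 to 2.19 in the 7 WKY arrays. By vessel type the medians were 1.04 in SHR collateral and 0.97 in SHR control arteries, and 1.80 in WKY collateral and 1.91 in WKY control arteries. Its part in the strain differences of Cstb, Cst3 and the cathepsins was not tested.

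**Figure D5:**
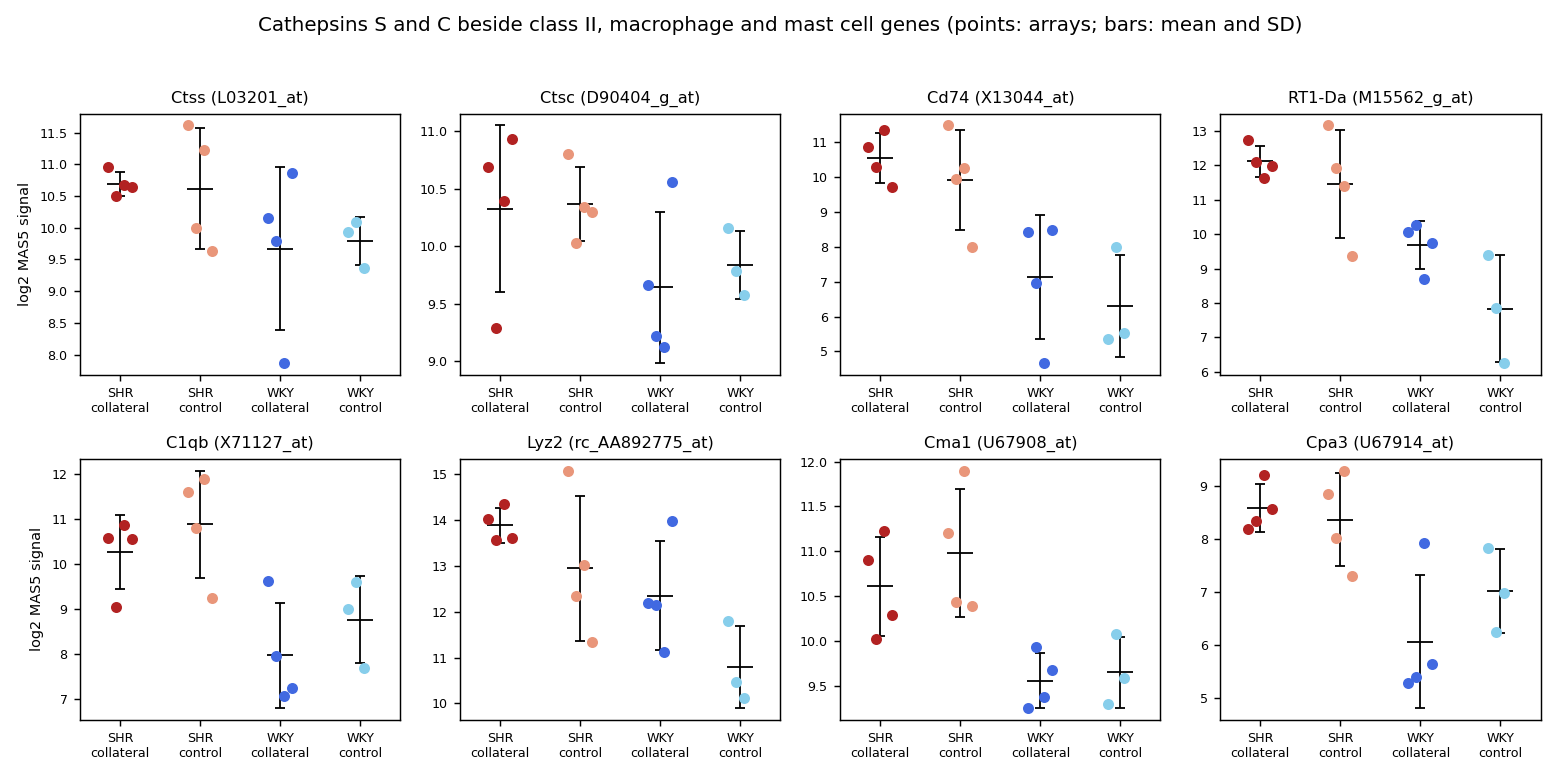
Log2 signal (y axis) of Ctss and Ctsc beside class II genes (Cd74, RT1-Da), macrophage genes (C1qb, Lyz2) and mast cell genes (Cma1, Cpa3) in the 4 groups (x axis), with a point per array and the mean and SD as bars. For each gene both SHR means lie above both WKY means, and some arrays of the strains overlap in all 8 panels.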

How the data were processed

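Total RNA of rat mesenteric arteries was hybridised to 15 arrays. The authors deposited signal values, computed with MAS5 in GCOS per the submitters' processing notes, whose versions the sources used here do not give. MAS5 scales each array, which makes arrays comparable if their total RNA is alike.

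Signals were floored at 1 (12 values) and taken to log2. Of 8799 probe sets 59 were array controls, and 6512 of the other 8740 were tested, being at or above the 40th percentile of the array on at least 3 arrays. Symbols came from the platform annotation, and all 14 members matched the gene table by gene identifier. Group means over all 15 arrays were fitted with limma 3.58.1 (R 4.3.3) and a variance trend (11 residual and 7.19 prior degrees of freedom), two-sided, with Benjamini-Hochberg adjustment over 6512 at 0.05. The fit was tested on simulated data, and precision is limited by how many arrays there are.

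The members, the 7 pathway lists and the 10 cell type lists were chosen with earlier results of these data known. Of each list, called genes and up to 3 with the smallest p were eligible to be named, by the brightest probe set, and for likeness the 3 genes with the highest Pearson r, of which part is given. Promoter windows came from RefSeq (GRCr8) for 8 of the 9 genes. Alternatives were equal array medians, quantile normalization, a constant before log2, other filters, no variance trend, array weights, replicate blocks, only the groups compared and each array left out. Equal medians without SHR collateral 3 was added after seeing the data, as were the deviations within groups, the pairs of members and the repeats of summaries without that array.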

Additional observations from a re-analysis of the deposited data

Results flagged for a closer look

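Ctsc by D90404_at had a log2 signal of 8.38 on SHR control 4 (signal 333.8), while the other 3 SHR control arrays lay between 9.80 and 9.98, so that array stood apart from its group. By the second Ctsc probe set it did not. Of 42 groups of 4 arrays checked over the members, 1 stood out in this way, and chance gives about 2.1.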

How the results depend on the processing

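Other filters, no variance trend, only the groups compared and leaving out an array of a group not compared cannot change a difference. The count that follows includes these settings, so it does not measure stability. Of 2548 recomputed member differences (14 probe sets, 7 comparisons, 26 settings), 2545 moved by less than the spread between arrays. The other 3 were of Cstb rc_AI008888_g_at with equal array medians: -0.15 for SHR collateral minus control arteries, -0.40 for the difference between strains and 0.48 for SHR minus WKY in collateral arteries. Equal medians also end its call in the mean strain difference. With array weights it was called in both vessel types, with values of 0.74 in collateral (adjusted p = 0.0459) and 0.88 in control arteries (adjusted p = 0.0454), and Cst3 rc_AI231292_g_at was called in the mean strain difference (-0.71, adjusted p = 0.0451).

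Counts of called probe sets moved by over 1.5 times as follows. The mean strain difference, with 58, had 31 with equal medians, 34 without the variance trend, 184 with array weights, and 30 (without SHR control 3) to 101 (without SHR control 4) with 1 array left out. SHR minus WKY in control arteries, with 2, had 0 with no filter or the 60th percentile filter, 1 without the variance trend, 14 with array weights, 7 with only the groups compared, 4 with equal medians and SHR collateral 3 left out, and 0 to 6 with 1 array left out. SHR minus WKY in collateral arteries, with 0, had 26 with array weights, 2 with only the groups compared, and 0 to 7 with 1 array left out. The 4 other comparisons had 0 called in each setting.

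Same-numbered collateral and control arrays deviated together with correlations of -0.07 to 0.08 in SHR and 0.02 to 0.31 in WKY. Pairs with unlike numbers were not compared and the labels do not say, so whether the numbers pair the arrays is not known. A fixed block for the replicate number, shared by both strains, gave 134 called for the mean strain difference, 4 for control arteries and 6 for collateral arteries. A random block for the number within each strain gave 49, 2 and 0, beside 58, 2 and 0 with no block. With 3 or 4 arrays a group, the median standard error of a member was 0.33 in WKY collateral minus control arteries, so differences of that size were not detectable.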
